A study of Mus musculus with 2 samples.

Results

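The TREM receptors and their adaptors form a set of 8 mouse genes. They are the 6 receptor genes Trem1, Trem2, Trem3, Treml1, Treml2 and Treml4 on chromosome 17 and the 2 adaptor genes Tyrobp and Hcst on chromosome 7. They were chosen by name, among 21938 protein-coding genes of the GENCODE M21 annotation. Accessible chromatin around them was read from ATAC-seq, which marks open DNA by where a transposase can cut and tag it. The cells were neutrophils of peripheral blood. The mice were C57BL/6J adults, 5 to 6 weeks of age, and no treatment is named. It held 2 libraries, biological replicates 1 and 2, each made from 50000 cells; there was no other group, and no gate or sort is named in the labels. Both replicates carry the same donor record, so the spread between them may be technical.

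TREM proteins are cell-surface receptors with an immunoglobulin-like domain, found mostly on myeloid cells. Most have a short tail that cannot signal, and pair through their membrane segment with DAP12, the product of Tyrobp, whose tyrosine motif recruits the kinase Syk. DAP10, the product of Hcst, is a related adaptor that engages PI 3-kinase and Grb2. In neutrophils and monocytes TREM-1 is known for amplifying inflammatory responses to microbial products.

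For each replicate the authors deposited a list of peaks thresholded by the irreproducible discovery rate (IDR), the expected share of irreproducible peaks, at 0.05, and a second, less strict list based on pseudoreplicates. Overlapping peaks were merged into regions. The IDR lists held 27709 regions in replicate 1 and 14548 in replicate 2, and the less strict lists 47640 and 29848. A list pooled over both replicates, called conservative by the authors, held 24882. A promoter region overlaps 1 kb on either side of any start site of the gene; a distal region has its summit over 1 kb from every annotated start site and lies at most 50 kb from a member's 5′-most start site. Strength is given as the authors' signal value, a score they do not define, which ranks regions within a list. It is also given as the percentile, the percentage of regions of the same kind in that list with a lower value. For percentiles, medians and the shares of summit windows, regions were classed by summit. Those with a summit within 1 kb of any annotated start site were promoter, all others distal. Because peak lists carry no read counts, library depth is unknown. In bulk chromatin a region open in few cells cannot be told apart from one weakly open in all.

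Promoter sequences of members that differed in accessibility are shown first, since later results refer to them. They are given in the sense of the gene on GRCm38.p6, in lower case, with matches to the searched motif strings in capitals. For Trem1, Hcst and Trem2 the RefSeq table gives the 250 bases before the start site; for Trem3 the bases around the replicate 1 summit were read from the genome. RefSeq entries matched 5 of the 8 members by symbol (Trem1, Trem2, Treml1, Treml4 and Hcst).
Trem1, chr17:48232489-48232738, plus strand: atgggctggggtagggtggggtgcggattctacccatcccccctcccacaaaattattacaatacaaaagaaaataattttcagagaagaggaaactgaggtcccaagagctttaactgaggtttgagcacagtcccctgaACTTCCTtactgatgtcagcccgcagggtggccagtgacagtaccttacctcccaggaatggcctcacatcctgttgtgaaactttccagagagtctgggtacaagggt
Trem3, chr17:48247599-48247699, plus strand: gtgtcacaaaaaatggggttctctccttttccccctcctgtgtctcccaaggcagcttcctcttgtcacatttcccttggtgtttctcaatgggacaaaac
Hcst, chr7:30419855-30420104, minus strand: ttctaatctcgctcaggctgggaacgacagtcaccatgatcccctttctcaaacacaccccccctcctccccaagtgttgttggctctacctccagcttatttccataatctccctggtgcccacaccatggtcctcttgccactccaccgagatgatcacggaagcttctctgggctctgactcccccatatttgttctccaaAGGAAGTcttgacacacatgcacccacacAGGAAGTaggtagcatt
Trem2, chr17:48346151-48346400, plus strand: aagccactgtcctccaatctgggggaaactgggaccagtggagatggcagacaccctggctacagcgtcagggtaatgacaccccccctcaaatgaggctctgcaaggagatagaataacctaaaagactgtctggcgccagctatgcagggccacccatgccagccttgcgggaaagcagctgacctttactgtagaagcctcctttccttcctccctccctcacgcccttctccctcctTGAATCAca
In these stretches the Trem1 and Hcst sequences each hold the ETS string AGGAAGT or its reverse complement, and that of Trem2 holds the AP-1 string TGANTCA. In the Trem3 stretch none of the strings was found.

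Among the receptors, Trem1, Trem3 and Treml2 had open promoters in both replicates, and Trem2, Treml1 and Treml4 had none in either IDR list. Trem1 (ENSMUSG00000042265.13, chr17:48232768-48246924, plus strand) encodes the activating receptor of neutrophils and monocytes. Its promoter region had a signal value of 12.1 in replicate 1, 13.7 in replicate 2 and 13.2 in the pooled list. These values stood at percentiles 58.3 and 55.6 among all promoter regions of replicates 1 and 2, near the middle in both. The summits lay 48 and 73 bp upstream of the GENCODE start site, 48232768, inside the Trem1 sequence printed above. That sequence ends just before the RefSeq start site, 48232739, which lies upstream of the GENCODE one.

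Trem3 (ENSMUSG00000041754.5, chr17:48247777-48258841, plus strand) encodes a DAP12-pairing receptor of mouse myeloid cells. Its promoter region had a signal value of 10.1 in replicate 1, 7.21 in replicate 2 and 9.69 in the pooled list. The percentile was 42.0 in replicate 1 and 5.01 in replicate 2, so the rank of Trem3 was less alike between replicates than that of Trem1. Both summits lay upstream of the start site, by 128 and 148 bp.

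Treml2 (ENSMUSG00000071068.7, chr17:48299498-48312533, plus strand) encodes TLT-2, a receptor of B cells, macrophages and neutrophils that lacks the membrane charge used for DAP12. Its strongest promoter region had signal values of 11.6 in replicate 1, 10.3 in replicate 2 and 12.5 in the pooled list, at percentiles 53.9 and 26.2 in the replicates. Accessibility was centred on a downstream start site: the summits lay 894 and 876 bp inside the gene from its 5′-most start site, and in replicate 1 only 6 bp from the next annotated one. At the 5′-most start site itself there was a region of 4.16 in the less strict list of replicate 1 alone. A further intronic region of 4.65 was listed in replicate 1 only.

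The other receptors were listed only among weaker peaks. Treml4 (ENSMUSG00000051682.15, chr17:48264295-48275360, plus strand), a receptor of dendritic cells and macrophages, had a promoter region in both less strict lists, with signal values of 5.42 in replicate 1 and 4.80 in replicate 2. These peaks had an IDR of 0.180 and 0.437, far outside the threshold. Trem2 (ENSMUSG00000023992.14, chr17:48346401-48354147, plus strand), the lipid-sensing receptor of microglia and tissue macrophages, had a single region of 3.94, in replicate 1, centred 1095 bp inside the gene, with an IDR of 0.389. Treml1 (ENSMUSG00000023993.7, chr17:48359916-48367176, plus strand), which encodes the platelet granule receptor TLT-1, likewise had a single region, of 3.59 in replicate 1, 305 bp inside the gene, also with an IDR of 0.389. In replicate 2 neither Trem2 nor Treml1 had a promoter region in either list.

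Both adaptor genes were accessible near their start sites, Hcst more weakly than Tyrobp. Tyrobp (ENSMUSG00000030579.10, chr7:30413760-30417585, plus strand) and Hcst (ENSMUSG00000064109.8, chr7:30417712-30419854, minus strand) face each other, with their ends 127 bp apart and their start sites 6.09 kb apart. The Tyrobp start site carried a region of 8.70 in replicate 1, 8.57 in replicate 2 and 9.28 in the pooled list. Its summit fell on the start site in replicate 1 and 3 bp upstream in replicate 2. A companion region 942 bp upstream had 7.11, 7.01 and 7.65 in the same order of lists. The percentiles of the start site region, 29.7 and 12.4, put it in the lower part of the promoter regions of both replicates.

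Hcst had a promoter region of 5.00 in replicate 1 and 5.45 in the pooled list, and none in the IDR list of replicate 2. It was among the weakest promoter regions of replicate 1, at percentile 2.75. The summit lay in an intron, 246 bp inside the gene. In the less strict list of replicate 2 the same region was present with a signal value of 5.17, and its IDR there was 0.0745. Around the IDR threshold of 0.05, taking only the best promoter peak of each gene in each replicate, Hcst in replicate 1 (IDR 0.0140) and Trem3 in replicate 2 (0.0240) were the nearest inside, and Hcst in replicate 2 and Treml4 in replicate 1 the nearest outside. On the inside, secondary promoter regions lay closer to the threshold. The companion region of Tyrobp in replicate 2 and the intronic region of Treml2 in replicate 1 had a −log10 IDR of 1.32 and 1.37. A second Hcst region in replicate 1 was outside it with 1.12, against 1.13 for the best Hcst peak of replicate 2.

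**Figure D1:**
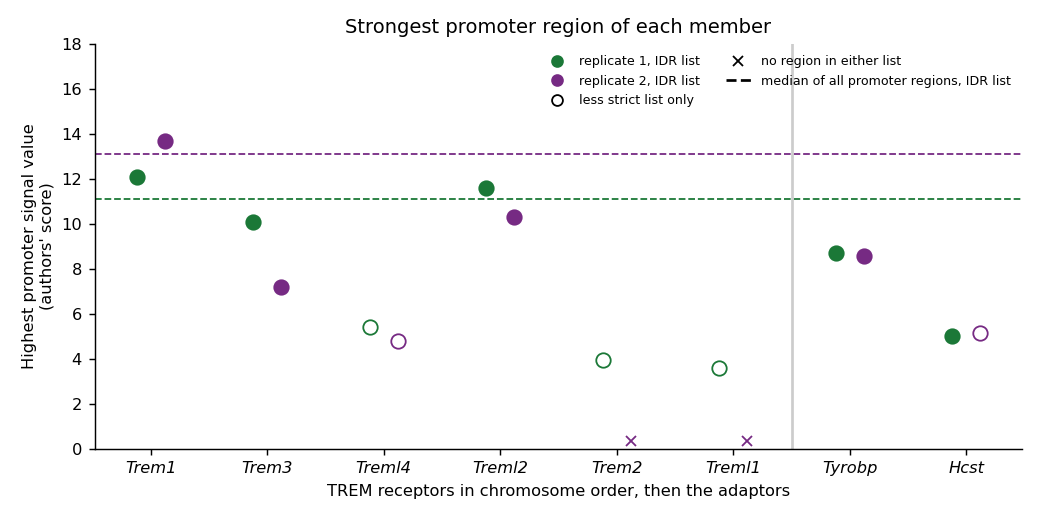
Highest promoter signal value of each member (y axis, the authors' score, no unit) in each replicate; filled points are in the IDR list, open points in the less strict list only, crosses mark no region in either, and dashed lines are the medians of all promoter regions of each IDR list (11.1 in replicate 1 and 13.1 in replicate 2). Trem1 was above the median in both replicates, Treml2 in replicate 1 only, and the other members with a region in an IDR list were below it.

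Counted together, 4 of the 8 members (Trem1, Trem3, Treml2 and Tyrobp) had a promoter region in both IDR lists, against 39.8% of all protein-coding genes. In replicate 1 alone 5 of 8 were open, with Hcst added, against 47.1% of all genes, and in replicate 2 alone 4 of 8, against 40.3%. In both less strict lists 6 of 8 were open, with Treml4 and Hcst added, against 49.8%, and in the pooled list 5 of 8, against 46.8%. In a set of 8 these counts are small, and none is read as a difference from the background. All 8 promoters were CpG-poor: the observed-to-expected CpG ratio ran from 0.137 at Treml4 to 0.233 at Treml2, where 0.6 and a GC share of 50% define a CpG-rich promoter. Among the 12198 genes without a CpG-rich promoter, 18.2% had a promoter region in both IDR lists, which is the class the members belong to. Reads from repeated sequence are hard to place, so 32-base stretches were looked up in the genome. The share found at a single place was 98.4% within 1 kb of the Trem2 start site, 96.7% at Treml1 and 96.7% at Treml4. It was 82.0% at Trem1, 98.9% at Trem3, 87.6% at Treml2, 100% at Tyrobp and 98.2% at Hcst. The part of repeated sequence in which promoters were listed was not tested.

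Motif strings were searched on both strands, in the printed promoters and within 50 bp on either side of each summit. The strings were AGGAAGT for ETS factors, TGTGGT for RUNX, TTGCNNAA for C/EBP, TGANTCA for AP-1, AGATAA for GATA and GGGNGTGG for KLF, and they do not contain each other. The ETS string was at the Hcst summit, where the AP-1 string was found as well, and at the weak region on the 5′-most Treml2 start site. Of all replicate 1 promoter windows, 7.85% held the ETS string and 2.73% the AP-1 string. The window at the strongest Treml2 region held the RUNX string, as did 6.12% of promoter windows and the less strict Treml1 region, and the upstream Tyrobp region held the KLF string, as did 9.72%. No string lay in the windows of Trem1 or Trem3. In the printed RefSeq stretches, the Hcst promoter held the ETS string at 2 places and the Trem1 promoter at 1, against 7.69% of all 32851 RefSeq promoters with any, and the Trem2 promoter held the AP-1 string, against 6.75%. A match describes the letters and does not show binding.

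At least 1 distal region lay within 50 kb of every member in both IDR lists, though within 25 kb this held for 3 of the 8 members. The TREM cluster, 134 kb from the Trem1 start site to the Treml1 end, and its surroundings had 7 distal regions in replicate 1 and 3 in replicate 2, and the Tyrobp and Hcst locus had 2 in each. The strongest of them and 2 of the Trem1 flank are printed next, on the plus strand, centred on the replicate 1 summit, with capitals as before and with 3 further strings that were chosen after the sequences were seen: GNNGGCGCT, part of the CTCF motif, CTACANTTC, part of the ZNF143 motif, and AACTGGGTG, a unit that recurs upstream of Trem1.
Distal region of Tyrobp and Hcst, 40.0 kb upstream of Tyrobp, chr7:30373664-30373764: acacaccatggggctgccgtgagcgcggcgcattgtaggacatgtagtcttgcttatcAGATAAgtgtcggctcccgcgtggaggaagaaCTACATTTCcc
Distal region of Tyrobp and Hcst, 19.1 kb upstream of Tyrobp, chr7:30394565-30394665: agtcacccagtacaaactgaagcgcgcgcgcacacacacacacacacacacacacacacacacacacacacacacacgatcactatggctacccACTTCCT
Distal region 9.35 kb upstream of Trem2, chr17:48337005-48337105: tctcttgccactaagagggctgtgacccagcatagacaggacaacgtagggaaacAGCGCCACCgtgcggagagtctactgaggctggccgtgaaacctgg
Distal region 40.1 kb upstream of Trem1, chr17:48192600-48192700: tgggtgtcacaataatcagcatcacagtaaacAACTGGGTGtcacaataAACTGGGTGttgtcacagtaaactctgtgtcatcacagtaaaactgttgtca
Distal region 17.1 kb upstream of Trem1, chr17:48215589-48215689: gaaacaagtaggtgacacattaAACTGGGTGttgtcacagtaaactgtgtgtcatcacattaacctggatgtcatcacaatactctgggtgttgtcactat

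The strongest distal region of the set lay 40.0 kb upstream of Tyrobp, at chr7:30373516-30374035. It is intergenic, 10.9 kb from its nearest start site, that of Lrfn3. Its signal value was 22.5 in replicate 1, 23.5 in replicate 2 and 25.3 in the pooled list. At percentiles 99.6 and 99.8 among distal regions it was near the top of both replicates, well above the regions at the Tyrobp and Hcst start sites themselves. Its summit window held the GATA string, found in 2.51% of replicate 1 distal windows. It also held the ZNF143 string, found in 0.392%. That string was chosen after the sequence was seen, so its share does not measure how unusual the match is.

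The other distal region of the adaptors, at chr7:30394226-30394836 and also intergenic, had 15.0 in replicate 1, 10.1 in replicate 2 and 14.7 in the pooled list. Its percentile was 90.7 in replicate 1 and 44.2 in replicate 2. The ETS string lay at the edge of its window beside a run of CA repeats, and 17.2% of distal windows held that string. Both regions were within 50 kb of Tyrobp and of Hcst and are shared by them; neither gene had another.

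**Figure D2:**
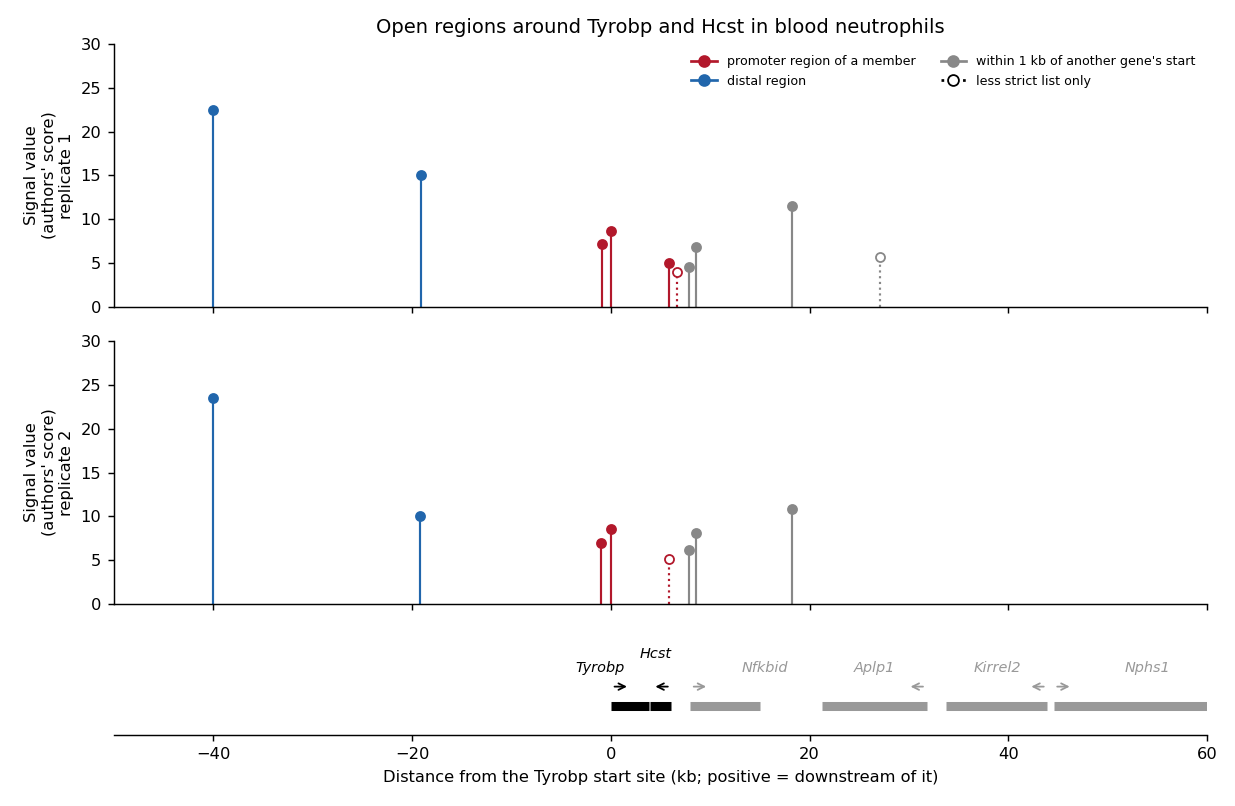
Signal value of each region (y axis, the authors' score) against distance from the Tyrobp start site in kb (x axis), replicate 1 above replicate 2, with genes drawn below (members black, others grey, arrows at start sites); open points are in the less strict list only. The distal region at −40.0 kb, 22.5 and 23.5, is the tallest in both replicates, and the regions at the Tyrobp start site, 8.70 and 8.57, are below both distal regions.

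Between the TREM genes, 2 distal regions were found in both replicates. The first lay 5.82 kb upstream of Treml2 at chr17:48293474-48294021, with signal values of 13.5 in replicate 1 and 10.0 in replicate 2, at percentiles 85.0 and 44.0. The second lay at chr17:48324101-48324766 in an exon of the neighbouring gene B430306N03Rik, 21.9 kb upstream of Trem2, with 10.6 and 9.40, at percentiles 63.3 and 34.2. It held the C/EBP string, as did 6.39% of distal windows.

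A further 3 regions were strong in replicate 1 but passed only the less strict list in replicate 2. The region 9.35 kb upstream of Trem2, chr17:48336922-48337177, had 15.7 in replicate 1, at percentile 92.9, and 7.26 in the less strict list of replicate 2. Its window held the CTCF string, likewise chosen after the sequences were seen, as did 4.39% of distal windows. It was thus the strongest distal region of the cluster in replicate 1, next to a receptor gene whose own promoter was in neither IDR list. The region 47.3 kb upstream of Trem1, chr17:48185239-48185623, had 13.4 and, in the less strict list of replicate 2, 8.53. The third lay in a Treml4 exon, chr17:48274936-48275257, 10.8 kb downstream of the Treml4 start site, and had 11.7 and 6.91. All 3 were in the pooled list, with 15.6, 13.7 and 11.8.

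The other distal regions upstream of Trem1 in the IDR lists lay in a tandem repeat. Copies of the 9-base unit AACTGGGTG, capital in the last pair of printed sequences, numbered 312 within 50 kb upstream of Trem1. They fell in blocks: 192 copies between 42 and 30 kb upstream, 103 between 18 and 10 kb and 17 between 6 and 2 kb. The region 40.1 kb upstream, chr17:48192316-48193464, held 20 copies and the region 17.1 kb upstream, chr17:48215438-48216027, held 10. The first had signal values of 5.27 in replicate 1 and 5.68 in replicate 2, at percentiles 3.03 and 1.34, the weakest distal region of the set in both IDR lists. The second had 7.26 in replicate 1 and 4.84 in the less strict list of replicate 2.

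In the less strict list of replicate 1, 6 more regions, of 2.20 to 3.98, lay between them in the first block, each with 5 to 10 copies. That list also had a region 1.90 kb upstream of Trem1, of 3.90, with 0 copies. Over the whole genome, 8 of the 30325 distal regions of that list held at least 2 copies of the unit. All 8 were these upstream of Trem1. The unit was chosen from their sequences, so its presence there is no separate result. Of 32-base stretches, 84.4% were found at a single place in the region 40.1 kb upstream of Trem1 and 81.9% in the one 17.1 kb upstream. The part that repeated sequence has in these peaks was not tested. Without them, 7 distal regions stayed in replicate 1 and 4 in replicate 2, and Trem1 had none in replicate 2.

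**Figure D3:**
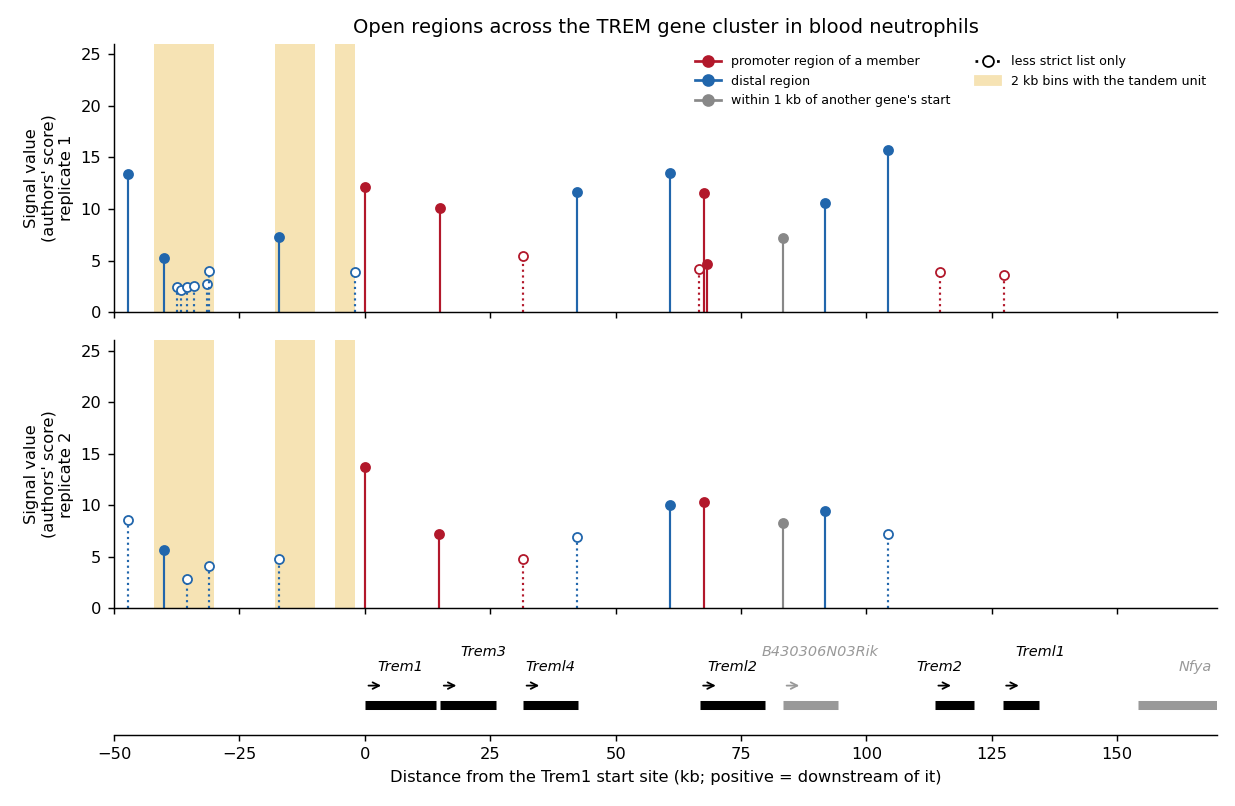
Signal value of each region (y axis, the authors' score) against distance from the Trem1 start site in kb (x axis), replicate 1 above replicate 2, with genes drawn below (members black, others grey, arrows at start sites); open points are in the less strict list only, and shaded bands are 2 kb bins that hold the tandem unit. Filled promoter points stand at Trem1, Trem3 and Treml2 in both replicates, with 12.1 and 13.7 at Trem1, while Treml4 has open points and Trem2 and Treml1 have open points in replicate 1 only.

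Per gene, the members had 2 to 4 distal regions in replicate 1 and 1 or 2 in replicate 2. The mean was 2.75 per member against 1.16 over all protein-coding genes in replicate 1, and 1.38 against 0.429 in replicate 2. All 8 members had at least 1 distal region in replicate 1, against 51.2% of all genes, in replicate 2, against 27.6%, and in both, against 27.5%. The last count fell to 3 with a window of 25 kb and to 2 with peaks at or above the median signal value. These counts are not independent of each other, since the windows of neighbouring members overlap: the 8 members shared 9 distinct distal regions in replicate 1 and 5 in replicate 2. All 5 of the replicate 2 regions overlapped a replicate 1 region. Trem1 and Treml2, with 4 each in replicate 1, had a number that 8.96% of genes reached or passed. The 4 of Trem1 include the tandem repeat regions 40.1 and 17.1 kb upstream of it. The latter was also counted for Trem3 and Treml4. In replicate 2 the only distal region of Trem1 was the one 40.1 kb upstream, and 27.6% of genes had at least 1.

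**Figure D4:**
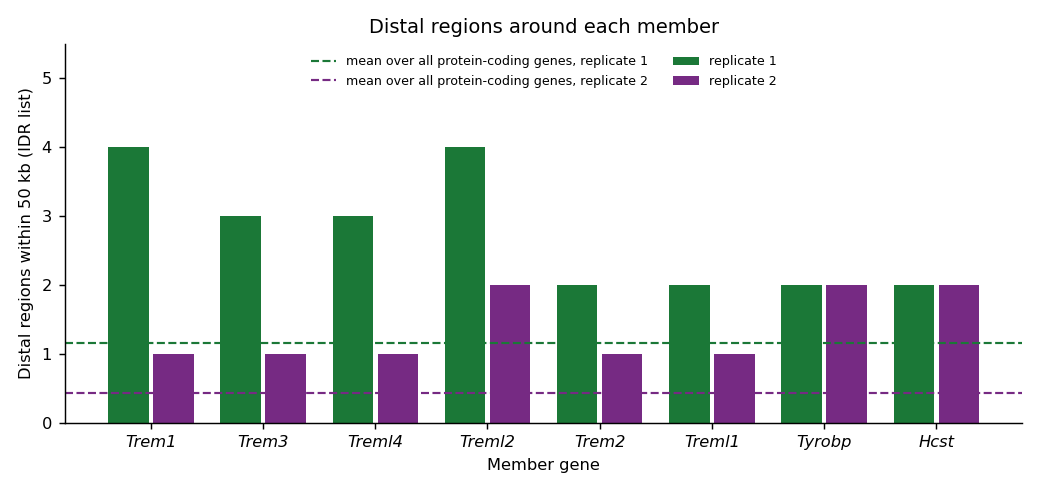
Number of distal regions within 50 kb of each member (y axis) in the IDR list of replicate 1 (left bars) and replicate 2 (right bars), with dashed lines at the mean over all protein-coding genes, 1.16 and 0.429. Every bar stands above its line, and Trem1 and Treml2 are highest in replicate 1 with 4. Tandem repeat regions upstream of Trem1 are counted in both Trem1 bars and in the replicate 1 bars of Trem3 and Treml4.

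Of the other protein-coding genes within 50 kb of a member, 3 of 6 were open in both replicates, against 39.8% of all protein-coding genes. A count among 6 genes is not read as a difference. Nfkbid, which encodes a nuclear IκB protein, starts 1.88 kb from the Hcst start site and had promoter signal values of 6.87 in replicate 1 and 8.16 in replicate 2, above the Hcst region in each. Nfya, which encodes a subunit of the CCAAT-binding factor NF-Y, had 9.44 and 10.8. B430306N03Rik, between Treml2 and Trem2, had 7.22 and 8.30; of 32-base stretches in that region 50.1% were found at a single place. Aplp1, Kirrel2 and Nphs1 had no promoter region in either IDR list.

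Most signalling genes downstream of DAP12 and DAP10 had open promoters. Of 28 such genes, 22 had a promoter region in both IDR lists, against 39.8% of all protein-coding genes. In replicate 1 it was 26, against 47.1%. The list holds broadly used genes, and its CpG content was not looked at, so the counts are not read as particular to this pathway. The highest signal values were at Grb2, an adaptor that DAP10 binds (19.0 in replicate 1 and 17.0 in replicate 2), Pik3ca, a PI 3-kinase catalytic subunit (16.2 and 18.2), and Bcl10, which links Card9 to NF-κB (15.1 and 17.4). Syk, the kinase that DAP12 recruits, had 7.71 and 8.65. Fcer1g, the Fc receptor γ chain and another adaptor of this type, had 11.7 and 10.9, above Tyrobp in both replicates. Lcp2, the SLP-76 scaffold, and Zap70, the T cell relative of Syk, had no promoter region in either IDR list.

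Of other receptors that use the same adaptors, 2 of 12 matched genes were open in both replicates. The share was 39.8% over all protein-coding genes and 18.2% over those without a CpG-rich promoter. The CpG class of these receptors was not looked at, and the count is not read as a difference. Pilrb1, an activating paired receptor, had 11.1 in replicate 1 and 13.1 in replicate 2, and Sirpb1b, a signal-regulatory protein, had 11.8 and 10.1. Cd300ld had 7.18 in replicate 1 alone, the third highest mean of that list. Clec5a, a DAP12-pairing lectin of myeloid cells, had a region of 4.76 in the less strict list of replicate 1 only. Cd200r4 and Cd300lb had none in an IDR list. In the less strict lists of replicates 1 and 2 Cd300lb had 4.25 and 5.26. Of 10 genes for TREM ligands and shedding enzymes, 6 were open in both, against 39.8% of all protein-coding genes. Hmgb1, a nuclear protein and reported TREM-1 ligand, had 17.0 and 17.1, the sheddases Adam10 and Adam17 had 16.8 and 15.7, and 15.1 and 16.6, and Pglyrp1, a granule protein that binds TREM-1, had 10.9 and 10.3. Apoa1, Apoe and Clu, lipoprotein components that bind TREM-2, had no promoter region in either IDR list.

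**Figure D5:**
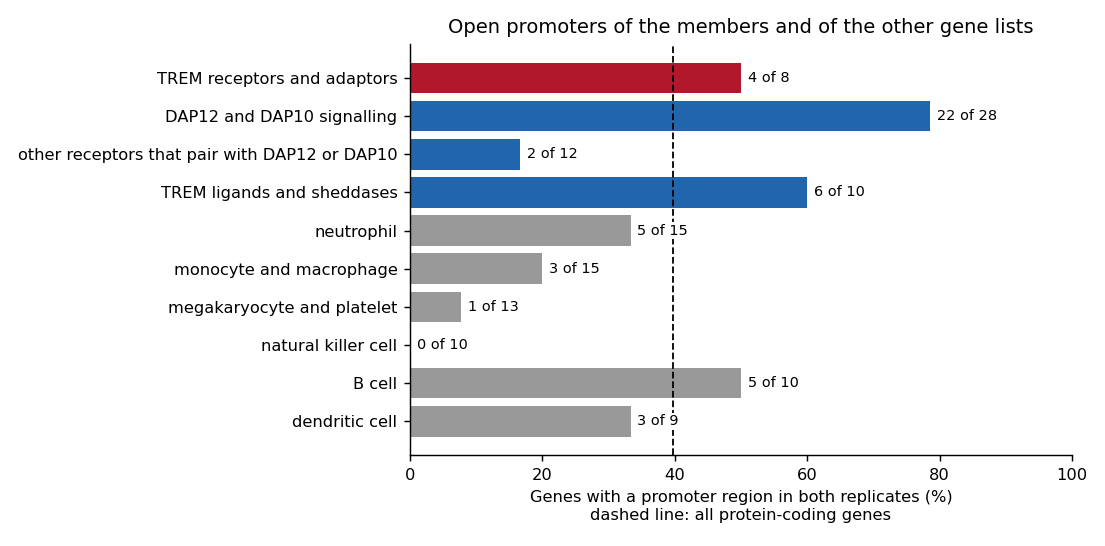
Percentage of genes with a promoter region in both IDR lists (x axis) for the TREM receptors and adaptors, 3 lists of related genes and 6 lists of cell type markers, with the count beside each bar; the dashed line is 39.8%, the share of all protein-coding genes. Signalling genes stand highest with 22 of 28, and the members stand at 4 of 8.

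Because TREM genes are used by several blood cells, marker genes were read beside them. Over all protein-coding genes, 39.8% were open in both replicates and 47.1% in replicate 1. Of 15 neutrophil markers, 5 were open in both replicates (Clec4e, Itgb2, Il1r2, Mmp8 and S100a9) and 12 in replicate 1, with Clec4e at 19.1 and 16.2; Cd177 and Ly6g, both surface proteins of mouse neutrophils, had no promoter region in any list, and Fpr2 had none in an IDR list. Of 15 monocyte and macrophage markers 3 were open in both (Maf, Nr4a1 and Cd68), and Adgre4, C1qa and C1qb were in neither IDR list. Of 13 megakaryocyte and platelet markers, the lineage that uses Treml1, Itgb3 alone was open in both, with 14.7 and 12.8. Itga2b and Vwf were in the IDR list of replicate 1 alone, with 6.71 and 6.63, and in the less strict list of replicate 2 with 6.60 and 6.93, and Clec1b, Gata1 and Gp1ba were in neither IDR list. Of 9 dendritic cell markers, 3 were open in both (H2-Ab1, Itgax and Flt3), while Batf3, Cd209a and Clec9a were in neither IDR list. Of 10 natural killer cell markers 0 were open in both; Prf1 had 11.7 and Klrd1 8.40 in replicate 1, and Eomes, Gzma and Gzmb were in neither IDR list. In replicate 1, 4 of 15 monocyte and macrophage and 3 of 13 megakaryocyte and platelet markers were open. Dendritic cell markers were open there at 4 of 9 and natural killer cell markers at 2 of 10. B cell markers were open at 5 of 10 in both and at 8 of 10 in replicate 1. They were led by Cr2 with 23.7 and 17.0, Pax5 with 11.2 and 14.0 and Ms4a1 with 13.0 and 11.4. Blk and Fcmr were in neither IDR list. In both less strict lists 9 of 10 B cell and 11 of 15 neutrophil markers were open, against 49.8% of all genes. Treml2 is also a B cell gene; the part of B cells or of any other cell type in the members' regions was not tested.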

How the data were processed

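ATAC-seq peak lists of 2 libraries of 1 group were used. Per the file headers, the authors made for each replicate an IDR thresholded list (the main list), a less strict pseudoreplicated list and a ranked list, and for both together a conservative IDR list, all on mm10. Each peak's signal value is a score the authors gave, and its −log10 p and −log10 IDR are deposited values as well; neither headers nor labels define the score. Aligner, peak caller, versions and the handling of the transposase offset were not given in the sources used here.

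From these, overlapping peaks were merged (highest score and its summit kept) and assigned to GENCODE M21 start sites on GRCm38.p6, with an overlap of at least 1 bp. CpG content was taken 500 bp on either side of the 5′-most start site. Sequences came from that genome and from RefSeq (GRCm38.p6). With 1 group there was no test between groups; counts are given beside all protein-coding genes. Python 3.11.15 and NumPy 2.4.6 were used. On artificial peaks, promoter regions were assigned as planted for 400 of 400 genes, and distal regions for 400 of 400 genes. These artificial genes stood far apart with a single start site each, so overlapping windows of neighbouring genes were not covered.

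The members and lists were chosen with earlier results of these data known. The text names all members, every other protein-coding gene starting within 50 kb of a member, from each list the 3 genes with the highest mean promoter score and up to 3, in alphabetical order, with none, and Fcer1g, Syk, Clec5a and Pglyrp1. Mmp8 and S100a9 were named after their values were seen. Ncr2, of the receptor list, did not match the annotation. The sequence at the Tyrobp start site is not reported here.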

Additional observations from a re-analysis of the deposited data

How the results depend on the processing

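The 7 counts were recomputed under 52 alternatives, and 37 stayed within 1.5 times. With the less strict lists, promoter regions of the members numbered 14 in replicate 1, and distal regions 16 in replicate 1, 11 in replicate 2 and 11 in both. With only peaks at or above the median signal value of their list, 1 member was open in both replicates, promoter regions numbered 3 in replicate 1 and 1 in replicate 2, distal regions 1 in replicate 2 and 1 in both, and 2 members had a distal region in both. A distal window of 25 kb left 3 distal regions in replicate 2 and 3 in both, and 3 members with such a region. The pooled list gave 8 distal regions in place of the 5 found in both replicates. With each replicate alone, members with an open promoter ranged from 4 to 5, distal regions from 5 to 9, and members with a distal region stayed at 8. These settings change which peaks or bases are counted by construction. Leaving out the tandem repeat regions, chosen after the data were seen, gave 7, 4 and 4 distal regions in replicate 1, replicate 2 and both, and 7 members. No paired analysis was possible because there was 1 group. Unknown depth limits the reading of closed promoters, above all in replicate 2, which had fewer peaks.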

Other observations

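A region upstream of Hcst, at chr7:30431889-30432172, was not counted as distal because it lies 513 bp from the start site of Gm30646. It had signal values of 11.5 in replicate 1 and 10.8 in replicate 2, above the Tyrobp and Hcst promoter regions in both, and its window held the ETS and AP-1 strings. With start sites of protein-coding genes alone, an alternative chosen after the data were seen, distal regions numbered 10 in replicate 1, 6 in replicate 2 and 6 in both.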
